A study of Mus musculus with 16 samples.

Results

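The Cyp2c genes encode a family of cytochrome P450 enzymes, and 10 of them were followed across the livers of mice of both sexes on 2 diets: Cyp2c29, Cyp2c37, Cyp2c38, Cyp2c39, Cyp2c40, Cyp2c50, Cyp2c54, Cyp2c55, Cyp2c68 and Cyp2c69. They were taken by symbol from the 78317 genes listed in the deposited tables, and all 10 passed the filter on low counts that left 14781 genes for testing. The family was chosen by the log2 fold changes with diet in males, and their difference from those in females, in an earlier analysis of the same data. There Cyp2c40 and Cyp2c55 were among the largest falls of males given the high fat diet, while Cyp2c40 differed in its diet response between the sexes. The change with diet in males and the difference of the diet changes between the sexes are therefore given as values without p. Counts of members called in these 2 comparisons stand beside the share of all genes, and nothing is read from them. The change with diet in females and the comparisons of the sexes were tested. The female values entered the choice through the difference between the sexes, so these tests are not independent of the choice.

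The mice were wild-type C57BL/6J animals, an inbred strain, in 4 groups of 4, split by sex and diet. The normal diet was the chow LabDiet 5053, in which fat gives 4.5% of the calories, and the high fat diet was D12492, in which it gives 60%. The mice arrived at 6 weeks of age, ate the diets for 10 weeks and were housed in groups. The diets came from different makers, so fat content and other ingredients cannot be told apart. RNA came from powdered whole liver, and the labels give all libraries the same batch number. The libraries held between 22228115 and 41420589 expected counts. All 5 genes of a sex chromosome check separated the sexes as labelled. Hepatocyte markers summed to between 83910 and 135800 CPM (counts scaled by TMM library sizes) over all libraries, and this sum shifted with diet. Females given the high fat diet had 97750 to 119600 CPM, all below the 120000 to 135800 CPM of females given chow. In males these ranges were 83910 to 100100 CPM and 99430 to 118800 CPM, with overlap. Most of the sum was Alb, with means of 90610 and 71840 CPM in females on the normal and high fat diet and 68670 and 48460 CPM in males. Of the 11 tested markers 0 were called with diet in females and 1 in males, beside 11.5% and 11.4% of all genes. Their median log2 fold change was -0.07 in females and 0.05 in males, so the shift of the sum is not one of the whole list. The part of the shift of this sum in the changes of the Cyp2c genes was not tested. In whole liver, fewer cells of a type and less RNA per cell cannot be told apart. The labels do not say that replicate numbers stand for cages or litters, so p-values measure the spread between these animals.

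Libraries 2 and 3 of the males on the high fat diet lay close to each other and apart from libraries 1 and 4. Their counts differed by a chi-square of 4.07 per gene, where sampling noise alone gives about 1, while the other pairs of that group differed by 55.6 to 308 and the pairs of the other groups by 20.8 to 96.7. They differed by more than sampling noise and were kept as 2 samples. That difference does not show that they came from separate animals, cages or hours, and the labels do not say. With the 2 averaged into 1, 1179 of 15046 genes were called with diet in males and 58 for the difference of the diet changes. With both kept, 1684 and 100 of 14781 genes were called. Most Cyp2c members were higher in these 2 libraries than in libraries 1 and 4, so values of the members in males on the high fat diet are given with and without them.

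Cytochromes P450 sit in the endoplasmic reticulum of hepatocytes and oxidise lipophilic substrates with electrons from P450 oxidoreductase. Members of the Cyp2c family oxidise arachidonic and linoleic acid to epoxides and hydroxy acids, and several metabolise drugs, retinoids or steroids. In mouse liver the family is known for induction through the nuclear receptors CAR and PXR and for expression that differs between the sexes under the pattern of growth hormone secretion. The genes arose by duplication and lie side by side, so members of a subgroup are nearly the same in sequence.

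All 10 members lie in 1 cluster on chromosome 19, within chr19:39007019-40113950 in build GRCm38 (GENCODE M21), an older build than the GRCm39 named in the submitters' processing notes. By their coding sequences they form 3 subgroups and 1 gene apart. Cyp2c29 (listed as ENSMUSG00000003053.18), Cyp2c38 (ENSMUSG00000032808.3) and Cyp2c39 (ENSMUSG00000025003.7) form the first subgroup. Their nearest matches were 94.2% identical for Cyp2c38 with Cyp2c39 and 89.5% for Cyp2c29 with Cyp2c39. Cyp2c37 (ENSMUSG00000042248.5), Cyp2c50 (ENSMUSG00000054827.13) and Cyp2c54 (ENSMUSG00000067225.3) form the second, with 96.1% identity between Cyp2c37 and Cyp2c50 and 95.2% between Cyp2c50 and Cyp2c54. Cyp2c40 (ENSMUSG00000025004.17), Cyp2c68 (ENSMUSG00000074882.4) and Cyp2c69 (ENSMUSG00000092008.3) form the third with Cyp2c67, which is not a member. Cyp2c40 was 98.1% identical to Cyp2c68 and 97.9% to Cyp2c69. Cyp2c55 (ENSMUSG00000025002.6) stood apart, with 77.4% identity to its nearest member, Cyp2c29.

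The likeness bears on the measurement, because RSEM shares out reads that match more than 1 gene by estimated probabilities. Of the stretches of 100 bases in the longest coding transcript, the share found exactly in another gene was 44.1% for Cyp2c40, 36.3% for Cyp2c69 and 19.8% for Cyp2c68. It was 9.40% for Cyp2c50, 7.59% for Cyp2c54 and 4.70% for Cyp2c37, and none of the stretches of Cyp2c29, Cyp2c38, Cyp2c39 or Cyp2c55 was shared. The shares depend on the length of the stretch. With 50 bases they were 72.1% for Cyp2c40, 54.8% for Cyp2c69 and 43.3% for Cyp2c68. They were then 30.7% for Cyp2c50, 25.7% for Cyp2c54, 30.1% for Cyp2c37, 12.05% for Cyp2c39, 7.45% for Cyp2c38, 2.08% for Cyp2c29 and 0.514% for Cyp2c55. Single values within the third subgroup are therefore uncertain, and sums over the copies are given beside them. The stretch of 60 coding bases that differs most within the second subgroup is shown because the levels of these genes parted with diet and sex. Capitals mark the 13 of 60 positions at which the copies are not all the same. The stretch covers coding bases 791 to 850 of each gene (GENCODE M21).
Cyp2c37: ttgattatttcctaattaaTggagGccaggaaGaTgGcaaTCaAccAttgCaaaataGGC
Cyp2c50: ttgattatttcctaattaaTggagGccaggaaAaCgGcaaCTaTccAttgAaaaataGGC
Cyp2c54: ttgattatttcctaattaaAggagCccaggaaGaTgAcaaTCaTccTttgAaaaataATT

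A stretch of the third subgroup, picked in the same way, is shown because Cyp2c40 and Cyp2c69 differed most between the sexes while Cyp2c67 did not pass the test. Even in this stretch only 8 of 60 positions differ, in capitals. It covers coding bases 264 to 323 of Cyp2c67, Cyp2c68 and Cyp2c69, and bases 351 to 410 of the longer annotated coding sequence of Cyp2c40.
Cyp2c40: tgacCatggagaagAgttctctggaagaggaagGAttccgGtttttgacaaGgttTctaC
Cyp2c67: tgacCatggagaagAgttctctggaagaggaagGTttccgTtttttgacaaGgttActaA
Cyp2c68: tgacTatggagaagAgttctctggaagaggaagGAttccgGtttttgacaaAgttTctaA
Cyp2c69: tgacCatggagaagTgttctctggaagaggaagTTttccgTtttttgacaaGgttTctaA

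Summed over the 10 members, the family was higher in females than in males on both diets. TPM values (counts divided by effective transcript length and scaled to the same total in each library) allow levels of different genes to be added. The summed level in the 4 females on the normal diet was 6587, 5910, 6753 and 6796 TPM, and in the 4 females on the high fat diet it was 3614, 5977, 5837 and 4313 TPM. In males the sums were 2614, 1686, 2417 and 2419 TPM on the normal diet and 763, 2062, 2112 and 965 TPM on the high fat diet. All 8 female libraries lay above all 8 male libraries, whereas the diet groups overlapped within each sex on this scale. In summed CPM, the scale of the fits, females had 8090 to 9039 on the normal diet and 4026 to 6761 on the high fat diet, without overlap, and males had 2154 to 3741 and 967 to 2760, with overlap. The group means in TPM were 6511 ± 411 (SD, n = 4) TPM in females on the normal diet and 4935 ± 1159 TPM in females on the high fat diet. In males they were 2284 ± 409 TPM and 1475 ± 711 TPM. The log2 ratio of high fat to normal diet was -0.40 in females and -0.63 in males in TPM, and -0.63 and -0.69 in CPM. In TPM that of females to males was 1.51 on the normal and 1.74 on the high fat diet. Without libraries 2 and 3 of the males on the high fat diet, the male diet ratio was -1.40 and the ratio of the sexes on that diet was 2.51. Without libraries 1 and 4 instead, these ratios were -0.13 and 1.24, so the male diet ratio depends on which libraries are kept. A sum over chosen members is given without a test.

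**Figure D1:**
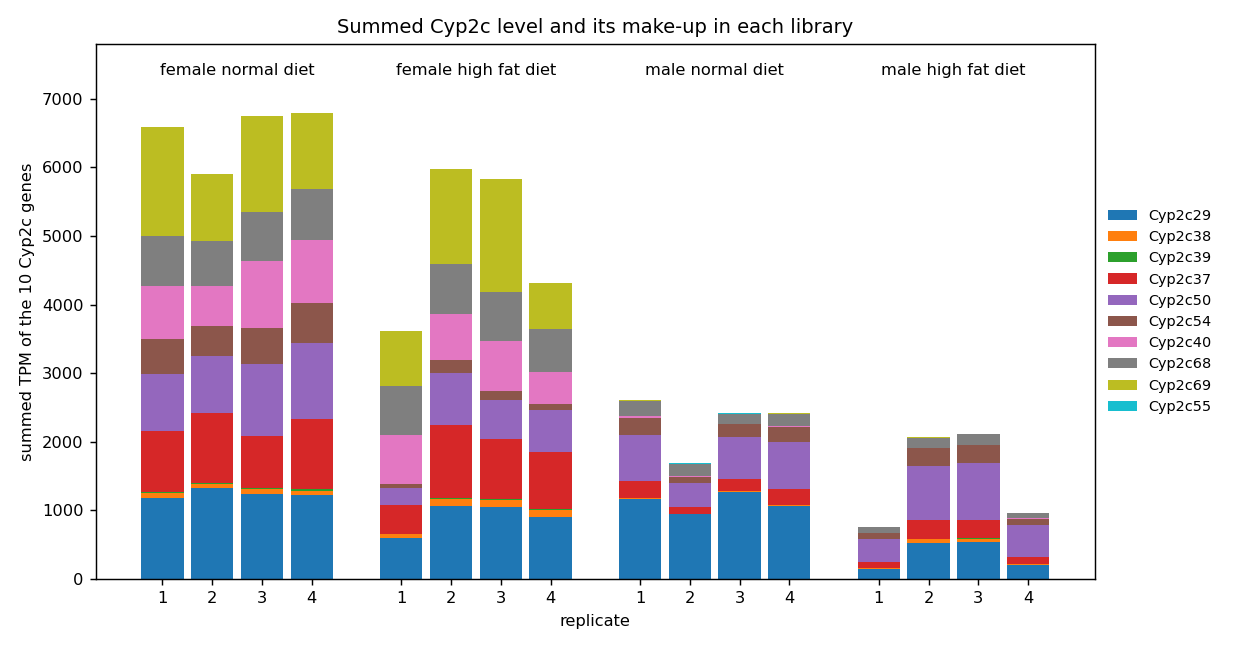
Summed TPM of the 10 Cyp2c genes in each of the 16 libraries (1 bar per library, numbered by replicate; colours are the genes). Female bars reach between 3614 and 6796 TPM and male bars between 763 and 2614 TPM, and Cyp2c69, Cyp2c68 and Cyp2c40 take up much of the female bars and little of the male ones.

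The make-up of the family also differed between groups. On the normal diet the members of females ran, from high to low mean TPM, Cyp2c69, Cyp2c29, Cyp2c50, Cyp2c37, Cyp2c40, Cyp2c68, Cyp2c54, Cyp2c38, Cyp2c39 and Cyp2c55. Neighbours in this order overlapped between Cyp2c69 and Cyp2c29 and in the run from Cyp2c50 to Cyp2c68, and all other neighbours were apart. In males on that diet the order was Cyp2c29, Cyp2c50, Cyp2c37, Cyp2c54, Cyp2c68, Cyp2c40, Cyp2c38, Cyp2c55, Cyp2c69 and Cyp2c39. There the runs from Cyp2c37 to Cyp2c68 and from Cyp2c40 to Cyp2c55 overlapped. Cyp2c29 made up 49.3% ± 5.81 (SD, n = 4) of the summed TPM in males on the normal diet and 22.6% ± 3.32 on the high fat diet, where Cyp2c50 was the highest member with 42.1% ± 4.40. On the high fat diet the female order was Cyp2c69, Cyp2c29, Cyp2c37, Cyp2c68, Cyp2c40, Cyp2c50, Cyp2c54, Cyp2c38, Cyp2c39 and Cyp2c55, with overlap between neighbours from Cyp2c69 to Cyp2c50 and between Cyp2c54 and Cyp2c38. The male order was Cyp2c50, Cyp2c29, Cyp2c37, Cyp2c54, Cyp2c68, Cyp2c38, Cyp2c39, Cyp2c69, Cyp2c40 and Cyp2c55, with overlap between neighbours from Cyp2c50 to Cyp2c68 and from Cyp2c39 to Cyp2c55.

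**Figure D2:**
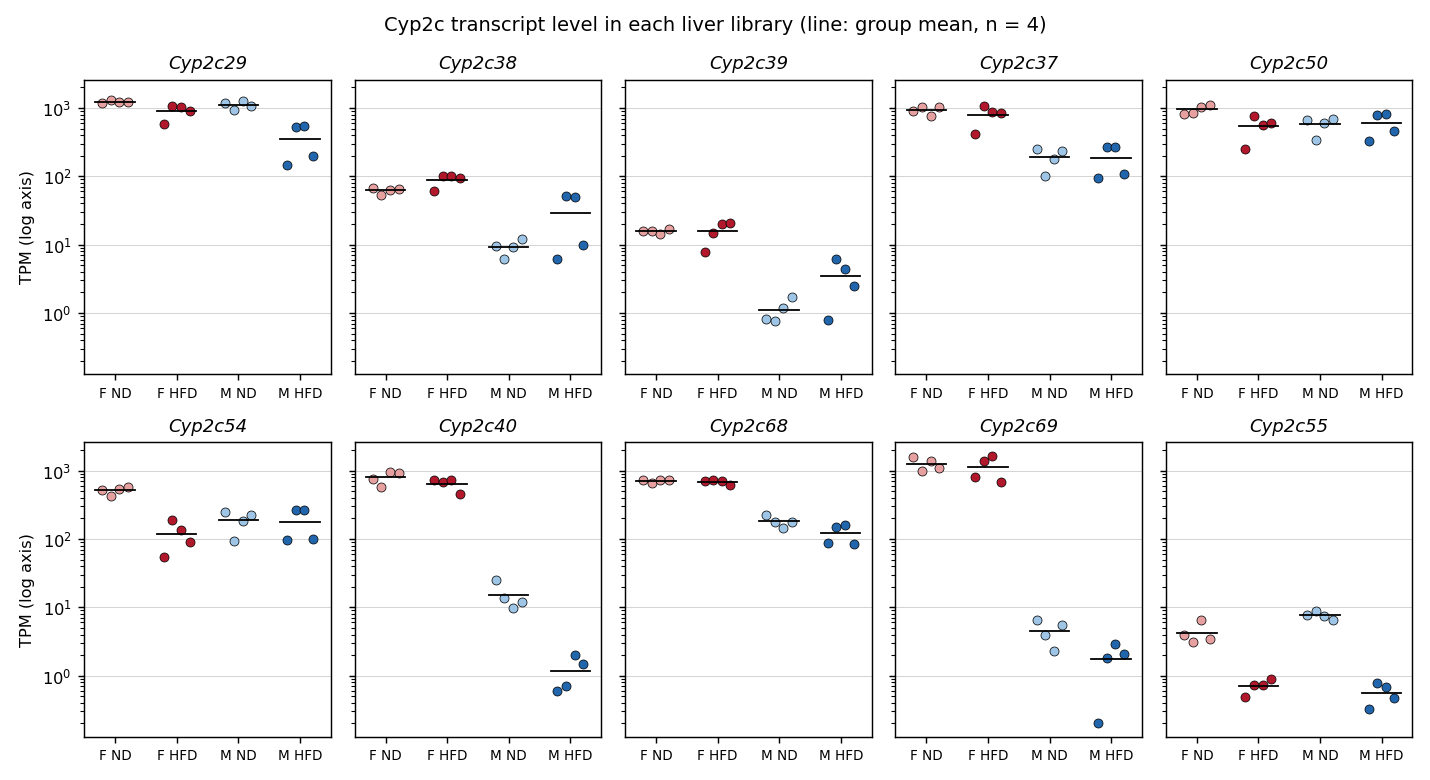
TPM of each Cyp2c member in each library on a shared log axis (F and M, female and male; ND and HFD, normal and high fat diet; 4 points and a mean line per group). Cyp2c69 and Cyp2c40 show the widest gap between the sexes, Cyp2c55 is low in all groups and lower on the high fat diet in both sexes, and the males on the high fat diet split into 2 higher and 2 lower libraries for Cyp2c29 and Cyp2c38.

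With the high fat diet in females, 2 of the 10 members fell and none rose. Over all genes tested, 5.76% were called lower in this comparison, 5.74% higher and 11.5% in either direction. The members that fell were Cyp2c54 and Cyp2c55. The change in females is also a part of the difference between the sexes that served to choose the family. For 5 members the CPM of the 2 female groups did not overlap, all of them lower on the high fat diet: Cyp2c29, Cyp2c50, Cyp2c54, Cyp2c55 and Cyp2c68. Over all genes 18.3% did not overlap. At an unadjusted p under 0.05, 3 members passed, Cyp2c50 besides the 2 called. The median log2 fold change of the 10 members was -0.51, and that of all genes tested was 0.00 to the second decimal. The plot of diet changes sets the females beside the males.

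With the high fat diet in males, 4 of the 10 members were called lower and none higher: Cyp2c55, Cyp2c40, Cyp2c29 and Cyp2c68. Over all genes 5.36% were called lower, 6.03% higher and 11.4% in either direction, and for 3 members the libraries did not overlap, against 18.5% of all genes. These counts come from the comparison that led to the choice of the family, and nothing is read from them. The median log2 fold change of the members was -0.40, beside 0.01 over all genes. Values without libraries 2 and 3 are given below for each member. Without libraries 1 and 4 instead, the male change was -1.13 for Cyp2c29, 2.39 for Cyp2c38 and 2.14 for Cyp2c39. It was then 0.43 for Cyp2c37, 0.41 for Cyp2c50, 0.42 for Cyp2c54 and -0.29 for Cyp2c68. The female and male diet changes rest on different animals.

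**Figure D3:**
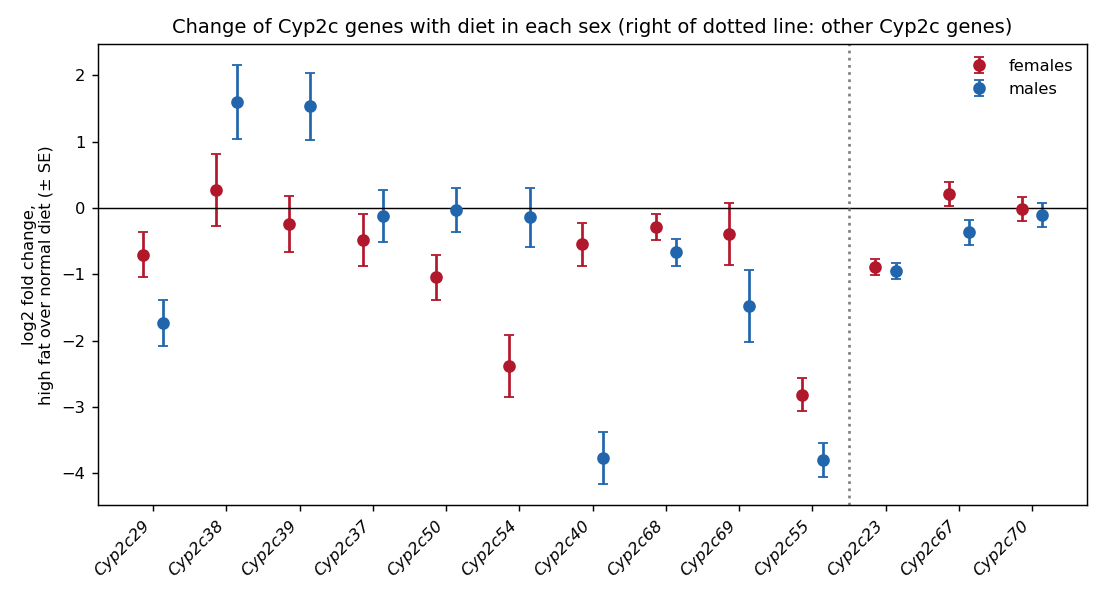
log2 fold change of high fat over normal diet (points, edgeR fit; bars, 1 SE) for the 10 Cyp2c members and 3 other Cyp2c genes in females and males. Cyp2c55 lies far below 0 in both sexes, Cyp2c54 only in females, and Cyp2c40 and Cyp2c29 lie lower in males than in females.

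Between the sexes on the normal diet, 7 of the 10 members were higher in females and 1, Cyp2c55, was higher in males. Over all genes 7.03% were called higher in females, 8.68% higher in males and 15.7% in either direction. For 9 members the sexes did not overlap, where 22% of all genes did not. The male libraries are also the normal diet side of the diet comparison in males, which served to choose the family. The median log2 fold change of females over males was 2.12 for the members and -0.00 for all genes. On the high fat diet 6 members were higher in females and none was higher in males, beside 8.84% of all genes higher in females and 20.4% called in either direction. This comparison shares its male libraries with the diet comparison in males. For 6 members the sexes did not overlap on the high fat diet, beside 22.7% of all genes, and the median log2 fold change of the members was 1.67. On that diet 7 members were called without male libraries 2 and 3, beside 2704 of 15524 genes. Without libraries 1 and 4, 5 members were called, beside 1719 of 15574 genes. Without libraries 2 and 3 the female to male difference was 2.84 for Cyp2c37, 3.18 for Cyp2c39, 2.86 for Cyp2c68, 9.20 for Cyp2c40 and 9.87 for Cyp2c69 on the log2 scale.

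Cyp2c29, often used as a readout of CAR and PXR activity in mouse liver, had the highest or second highest mean of the members in every group. Its level in females was 1182, 1325, 1239 and 1221 TPM on the normal diet and 591, 1066, 1048 and 906 TPM on the high fat diet. In males it was 1170, 942, 1267 and 1066 TPM on the normal diet and 144, 526, 536 and 200 TPM on the high fat diet. The diet groups did not overlap in either sex. In males the log2 fold change in CPM was -1.73 ± 0.35 (SE), and -2.79 ± 0.24 without libraries 2 and 3. In females it was -0.70 ± 0.34 and did not pass the test (adjusted p = 0.2). A fit with the 2 female groups alone gave -0.70 ± 0.17 with an adjusted p of 0.0212. The sexes did not differ beyond their spread on the normal diet, with a log2 fold change of females over males of 0.15 ± 0.34 (adjusted p = 0.802). On the high fat diet Cyp2c29 was higher in females by 1.18 ± 0.34 on the log2 scale (adjusted p = 0.0252), although the CPM of the sexes overlapped. This call did not hold without library 2 or 3 of the females or library 4 of the males on the high fat diet, with adjusted p of 0.0104 to 0.0695 when each library was left out in turn, and without libraries 2 and 3 of the males the difference was 2.24 ± 0.23 (adjusted p = 6.09e-06).

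Cyp2c38, an arachidonic acid epoxygenase, was low in males on the normal diet. Its male levels were 9.41, 6.22, 9.13 and 12.1 TPM on the normal diet and 6.15, 50.9, 50.6 and 9.78 TPM on the high fat diet. Only libraries 2 and 3 lay above the normal diet range. The log2 fold change in males was 1.60 ± 0.56 with all libraries and -0.33 ± 0.27 without those 2. Females had 52.5 to 67.5 TPM on the normal diet and 60.3 to 102 TPM on the high fat diet, and the change of 0.27 ± 0.54 in CPM did not pass the test (adjusted p = 0.785). Females were higher than males on the normal diet by 2.74 ± 0.58 on the log2 scale (adjusted p = 0.00726). On the high fat diet the difference was 1.42 ± 0.55 without overlap and missed the threshold with all libraries (adjusted p = 0.0857, and 0.0416 with DESeq2), and it was 3.34 ± 0.31 (adjusted p = 2.98e-06) without male libraries 2 and 3.

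Cyp2c39, known for oxidising retinoic acid, was the lowest member in males on the normal diet. Its levels there were 0.82, 0.77, 1.18 and 1.72 TPM, and on the high fat diet they were 0.78, 6.07, 4.42 and 2.44 TPM. Library 1 of the high fat diet lay within the normal diet range and the other 3 above it. The log2 fold change was 1.53 ± 0.51 with all libraries and 0.36 ± 0.50 without libraries 2 and 3. Females had 14.3 to 17.0 TPM on the normal and 7.79 to 20.5 TPM on the high fat diet, without a diet change that passed the test (-0.24 ± 0.43, adjusted p = 0.756). Cyp2c39 was higher in females by 3.79 ± 0.51 on the log2 scale on the normal diet (adjusted p = 0.000303) and by 2.01 ± 0.46 on the high fat diet (adjusted p = 0.00841, or 0.0534 in a fit with only these groups).

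The ratio of Cyp2c38 to Cyp2c29 counts is not touched by the size of a library. It lay between 0.0688 and 0.0992 in females on the normal diet and between 0.165 and 0.181 in females on the high fat diet. In males the normal diet gave 0.0115 to 0.0198 and the high fat diet 0.0738 to 0.168. In each sex all libraries on the high fat diet had a higher ratio than all on the normal diet. In males on the high fat diet the ratio was 0.168 and 0.164 in libraries 2 and 3 and 0.0738 and 0.0847 in libraries 1 and 4. The size of the male shift therefore depends on which libraries are kept. No stretch of 100 bases is shared between the transcripts of Cyp2c38 and Cyp2c29. Of their 50-base stretches, 7.45% and 2.08% are found in some other gene. The sum of Cyp2c29, Cyp2c38 and Cyp2c39, in which Cyp2c29 is by far the largest part, was 1320 ± 53.6 TPM in females on the normal diet and 1008 ± 244 TPM on the high fat diet. In males it was 1122 ± 141 TPM and 384 ± 235 TPM. Fitted as 1 gene, the sum of Cyp2c29, Cyp2c38 and Cyp2c39 differed between the sexes by 0.27 ± 0.36 on the normal diet (adjusted p = 0.647).

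The 160 bases before the RefSeq start of these 3 genes are shown because members next to each other in sequence parted in their levels. They come from the RefSeq promoter table for build GRCm38.p6 and cover chr19:39286925-39287084 (plus strand) for Cyp2c29, chr19:39463076-39463235 (minus strand) for Cyp2c38 and chr19:39510662-39510821 (plus strand) for Cyp2c39. The annotations differ for Cyp2c29, whose GENCODE M21 model begins further upstream, at chr19:39269405-39330713, so that its RefSeq start lies inside that model. The 300-base table entries were aligned locally, and identity was taken over the aligned bases alone. It was 88.2% over 271 bases for Cyp2c38 and Cyp2c39 and 81.3% over 278 bases for Cyp2c29 and Cyp2c38. Capitals mark the longest run of letters that all 3 entries share, TCAAGGGTAAAT, which begins 151, 141 and 128 bases before the start. Both strands were searched, and 0.0183% of the 32851 promoters in the table hold these letters, those of the 3 genes included. The run was taken from these 3 entries, so its presence in them was fixed in advance. AGGTCA, the half-site of many nuclear receptors, was found in Cyp2c29 alone of the members with an entry, where it overlaps the shared run, and 16.3% of all promoters hold it. TGTTTAC, a form of the FOXA motif, was found in Cyp2c38 and Cyp2c39 and in 3.65% of all promoters. CAAGGTAAA was found in Cyp2c37 and Cyp2c50, beside 0.237% of all promoters. Their copy Cyp2c54 has no entry in the promoter table, so it was not searched for any of these letters. TTCNNNGAA, the motif of STAT5, was in none of the members' entries and in 8.3% of all promoters, and the direct repeat of AGTTCA with 4 bases between the copies was in none of them and in 0.0122%. A match is a description of the sequence, not a measured binding site.
Cyp2c29: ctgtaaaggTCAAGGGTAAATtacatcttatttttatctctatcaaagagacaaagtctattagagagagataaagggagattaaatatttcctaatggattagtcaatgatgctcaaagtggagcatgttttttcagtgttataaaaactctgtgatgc
Cyp2c38: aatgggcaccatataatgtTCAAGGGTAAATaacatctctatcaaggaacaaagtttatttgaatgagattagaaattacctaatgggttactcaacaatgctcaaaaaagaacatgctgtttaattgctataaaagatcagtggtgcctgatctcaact
Cyp2c39: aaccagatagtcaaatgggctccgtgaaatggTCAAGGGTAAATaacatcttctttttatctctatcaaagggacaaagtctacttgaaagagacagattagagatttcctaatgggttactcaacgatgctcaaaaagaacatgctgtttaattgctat

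Cyp2c54, which epoxidises arachidonic and linoleic acid, and Cyp2c55 were the members that fell in females. Cyp2c54 was at 521, 432, 533 and 586 TPM in females on the normal diet and 54.5, 189, 135 and 91.1 TPM on the high fat diet. The lowest normal diet library was above the highest high fat diet library. The log2 fold change in CPM was -2.38 ± 0.46 (adjusted p = 0.00598, edgeR's quasi-likelihood test with Benjamini-Hochberg adjustment), lower in 4 of 4 females. With the counts of Cyp2c37, Cyp2c50 and Cyp2c54 summed into 1 gene, the change was -0.94 ± 0.35 and no longer passed the test (adjusted p = 0.0941). In males the levels were 251, 92.1, 181 and 223 TPM on the normal diet and 95.6, 263, 264 and 98.9 TPM on the high fat diet. These male groups overlapped, with a log2 fold change of -0.14 ± 0.44, and of -1.06 ± 0.47 without libraries 2 and 3. The diet change in females minus that in males was -2.24 ± 0.63.

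Cyp2c54 was higher in females than in males on the normal diet by 1.44 ± 0.45 on the log2 scale (adjusted p = 0.044). That call was near the threshold and was lost when no low counts were filtered out (adjusted p = 0.107) and in 7 of 8 fits that left out 1 library, with adjusted p from 0.0385 to 0.109, and with the replicate number as a block (adjusted p = 0.0768). On the high fat diet its difference was -0.79 ± 0.44, with adjusted p = 0.22, and it was 0.12 ± 0.45 without male libraries 2 and 3.

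Cyp2c50, its close copy with related epoxygenase activity, was at 820, 832, 1042 and 1111 TPM in females on the normal diet and at 252, 755, 560 and 606 TPM on the high fat diet. These groups did not overlap, and the log2 fold change of -1.05 ± 0.34 missed the threshold (adjusted p = 0.0566). DESeq2 gave an adjusted p of 0.00785 for the same change. In males the range was 340 to 682 TPM on the normal diet and 332 to 822 TPM on the high fat diet, with a log2 fold change of -0.03 ± 0.33, or -0.65 ± 0.37 without libraries 2 and 3. Cyp2c50 did not differ between the sexes beyond the threshold on the normal diet (0.70 ± 0.33, adjusted p = 0.17, or 0.036 in a fit with only these groups) or on the high fat diet (-0.32 ± 0.33, adjusted p = 0.519), and the latter was 0.31 ± 0.36 without male libraries 2 and 3.

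Cyp2c37, which hydroxylates arachidonic acid, was higher in females on both diets. Its female levels were 896, 1030, 770 and 1025 TPM on the normal diet and 419, 1059, 876 and 834 TPM on the high fat diet. Its male levels were 247, 102, 180 and 231 TPM on the normal diet and 94.6, 270, 270 and 106 TPM on the high fat diet. The sexes did not overlap on either diet, while the diets overlapped in each sex. The difference between the sexes in CPM was 2.28 ± 0.41 on the log2 scale on the normal diet (adjusted p = 0.00233) and 1.92 ± 0.41 on the high fat diet (adjusted p = 0.00496). With its copies Cyp2c50 and Cyp2c54 summed in, the difference was 1.32 ± 0.35 on the normal diet (adjusted p = 0.0199) and 0.45 ± 0.35 on the high fat diet (adjusted p = 0.373). The diet change was -0.48 ± 0.39 in females (adjusted p = 0.468) and -0.12 ± 0.39 in males, or -1.03 ± 0.39 without male libraries 2 and 3.

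The balance between the copies of this subgroup also differed between the groups. The count ratio of Cyp2c54 to Cyp2c37 lay between 0.409 and 0.675 in females on the normal diet and between 0.107 and 0.174 in females on the high fat diet. In all 8 male libraries it lay between 0.878 and 0.994, whatever the diet. The 3 ranges did not overlap, and male libraries 2 and 3 on the high fat diet had ratios of 0.948 and 0.950, inside the range of the other males. The ratio of Cyp2c50 to Cyp2c37 ran from 0.588 to 1.31 in females and from 2.66 to 4.21 in males. Up to 9.40% of the 100-base stretches and up to 30.7% of the 50-base stretches of these transcripts are shared with another gene. The division of shared reads can therefore move such ratios, and its part in them was not tested. The sum of the 3 genes was 2400 ± 219 TPM in females on the normal diet and 1458 ± 532 TPM on the high fat diet, and 954 ± 293 TPM and 967 ± 435 TPM in males.

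**Figure D4:**
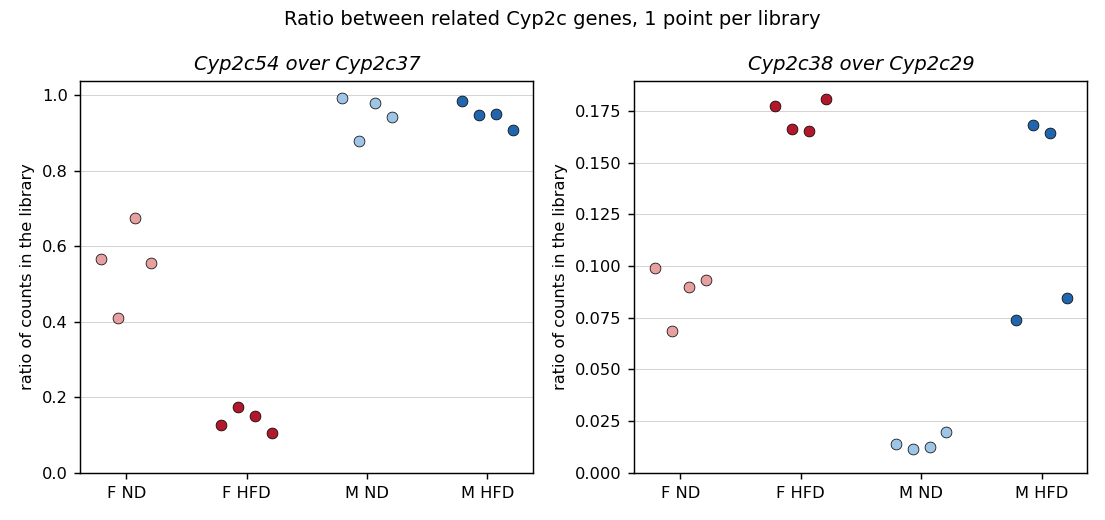
Ratio of the counts of Cyp2c54 to Cyp2c37 (left) and of Cyp2c38 to Cyp2c29 (right), 1 point per library (F and M, female and male; ND and HFD, normal and high fat diet; linear axes from 0). On the left the males lie between 0.878 and 0.994 and the females on the high fat diet between 0.107 and 0.174, and on the right the ratio is higher on the high fat diet in both sexes.

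Cyp2c40, which hydroxylates arachidonic acid near the end of its chain, was among the higher members in females and the second lowest in males on the high fat diet. Its male levels were 24.8, 13.6, 9.86 and 11.9 TPM on the normal diet and 0.59, 0.70, 1.98 and 1.46 TPM on the high fat diet. The highest of the high fat diet values was below the lowest normal diet value, and libraries 2 and 3 did not stand apart from 1 and 4. The log2 fold change in CPM was -3.77 ± 0.40, and -4.03 without libraries 2 and 3. Females had 765, 585, 971 and 920 TPM on the normal diet and 719, 681, 733 and 457 TPM on the high fat diet, which overlapped, with a log2 fold change of -0.55 ± 0.33 (adjusted p = 0.301). The female change minus the male change was 3.22 ± 0.51. This difference served to choose the family. Cyp2c40 was the 1 member called for it, beside 0.677% of all genes, and nothing is read from that count.

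The male levels of Cyp2c40 are a small part of those of its subgroup. Summed over Cyp2c40, Cyp2c67, Cyp2c68 and Cyp2c69, which share most of their sequence, males had 455 ± 79.7 TPM on the normal diet and 333 ± 79.4 TPM on the high fat diet, and females had 2975 ± 445 TPM and 2723 ± 603 TPM. Fitted as 1 gene, the sum changed by -0.54 ± 0.20 in males and by -0.34 ± 0.20 in females (adjusted p = 0.295 in females), and these changes differed by 0.20 ± 0.29. Between the sexes Cyp2c40 was higher in females by 5.71 ± 0.40 on the log2 scale on the normal diet (adjusted p = 3.2e-07) and by 8.94 ± 0.48 on the high fat diet (adjusted p = 8.69e-09). The summed copies were higher in females by 2.68 ± 0.22 (adjusted p = 2.59e-07) and 2.88 ± 0.22 (adjusted p = 7.78e-08).

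Cyp2c69 was the highest member in females and near the bottom in males. Females had 1583, 976, 1390 and 1108 TPM on the normal diet and 808, 1386, 1649 and 676 TPM on the high fat diet. Males had 6.47, 3.95, 2.30 and 5.53 TPM on the normal diet and 0.20, 1.82, 2.88 and 2.09 TPM on the high fat diet. The lowest female library, at 676 TPM, was far above the highest male library, at 6.47 TPM. The difference in CPM was 8.08 ± 0.64 on the log2 scale on the normal diet (adjusted p = 2.85e-06) and 9.17 ± 0.68 on the high fat diet (adjusted p = 1.08e-06). The diet change was -0.39 ± 0.47 in females (adjusted p = 0.633) and -1.48 ± 0.54 in males, where the groups overlapped, or -2.18 without libraries 2 and 3.

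Cyp2c68 was expressed in both sexes at a more even level. Females had 658 to 739 TPM on the normal diet and 626 to 724 TPM on the high fat diet, and the change of -0.28 ± 0.20 in CPM did not pass the test (adjusted p = 0.383). Males had 224, 177, 146 and 179 TPM on the normal diet and 88.4, 152, 160 and 83.1 TPM on the high fat diet, with overlap between the groups. The male log2 fold change was -0.67 ± 0.20, and -1.19 ± 0.18 without libraries 2 and 3. Cyp2c68 was higher in females by 1.96 ± 0.21 on the log2 scale on the normal diet (adjusted p = 6.47e-06) and by 2.34 ± 0.21 on the high fat diet (adjusted p = 8.15e-07).

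The 160 promoter bases of these 3 genes (RefSeq, GRCm38.p6) are shown because they are nearly the same while the female to male differences were not. They cover chr19:39812815-39812974, chr19:39741102-39741261 and chr19:39886770-39886929 for Cyp2c40, Cyp2c68 and Cyp2c69, all on the minus strand. In local alignments of the table entries, the promoter of Cyp2c40 was 98.9% identical to that of Cyp2c69 over 270 aligned bases. It was 94.4% identical to that of Cyp2c68 over 266. Capitals mark the letters CAAAGTCCA, which resemble the known binding motif of the liver factor HNF4A. They stand 45 bases before the start of Cyp2c40, 77 before that of Cyp2c68 and 75 before that of Cyp2c69, and they are also in the promoters of Cyp2c65, Cyp2c67 and Cyp2c70. Both strands were searched for these letters, chosen after the sequences were seen, and 0.475% of the 32851 promoters hold them. Neither they nor TCAAGGGTAAAT are in the 300 bases of Cyp2c55.
Cyp2c40: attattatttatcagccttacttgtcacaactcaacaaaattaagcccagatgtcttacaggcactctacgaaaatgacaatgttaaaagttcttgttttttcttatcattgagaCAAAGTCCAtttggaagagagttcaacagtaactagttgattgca
Cyp2c68: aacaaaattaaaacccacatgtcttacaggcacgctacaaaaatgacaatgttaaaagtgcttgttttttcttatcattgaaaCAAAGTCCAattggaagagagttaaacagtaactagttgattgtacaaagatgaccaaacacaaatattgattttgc
Cyp2c69: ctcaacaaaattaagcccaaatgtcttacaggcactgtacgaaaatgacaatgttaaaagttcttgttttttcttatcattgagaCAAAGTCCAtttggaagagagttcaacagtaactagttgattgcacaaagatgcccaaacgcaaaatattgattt

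Cyp2c55, known from the gut and as a gene induced through CAR and PXR, was low in liver and fell with the high fat diet in females. Its level was 3.91, 3.15, 6.57 and 3.42 TPM in females on the normal diet and 0.49, 0.73, 0.72 and 0.90 TPM on the high fat diet. In males it was 7.64, 8.81, 7.48 and 6.51 TPM on the normal diet and 0.33, 0.77, 0.68 and 0.47 TPM on the high fat diet. In both sexes every library on the high fat diet was below 1 TPM and every library on the normal diet was above 3 TPM. The log2 fold change in females was -2.81 ± 0.25 (adjusted p = 7.15e-06), lower in 4 of 4 animals. In males it was -3.80 ± 0.26, and -4.34 ± 0.33 without libraries 2 and 3. The female change minus the male change was 0.99 ± 0.35. Cyp2c55 was the 1 member that was higher in males on the normal diet, with a log2 fold change of females over males of -0.86 ± 0.22 (adjusted p = 0.0115). Its male normal diet libraries are those of the diet comparison by which it was noticed. That call was lost without library 2 of the females (-0.76 ± 0.23, adjusted p = 0.0513). On the high fat diet the sexes overlapped, with a difference of 0.13 ± 0.28 (adjusted p = 0.777).

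Gut tissue in the liver samples would carry Cyp2c55, so intestinal markers were read beside it. Of the 9 markers, Cdx2 and Sis were at 0 in all 16 libraries, and Cdx1, Krt20 and Muc2 stayed at or below 0.1235 CPM. The summed level of the list was 80.5 to 96.3 CPM in females on the normal diet and 117 to 265 CPM on the high fat diet, and 56.4 to 86.0 CPM and 76.6 to 189 CPM in males. Nearly all of it was Fabp2, a fatty acid binding protein that liver also expresses, with 82.3 ± 7.20 and 172 ± 63.3 CPM in females on the normal and high fat diet. Other members of the list went the other way in their means. Lgals4 was 3.88 ± 0.69 and 3.33 ± 1.75 CPM in females and 5.83 ± 1.80 and 3.95 ± 1.59 CPM in males on the normal and high fat diet, a change that did not pass the test (adjusted p = 0.745 in females and 0.312 in males). Vil1 was at most 0.599 CPM, with 0.266 ± 0.118 and 0.114 ± 0.0545 CPM in females and 0.311 ± 0.229 and 0.0773 ± 0.0568 CPM in males. The part of gut tissue in the Cyp2c55 values was not tested.

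The 3 genes outside the family whose pattern over the 16 libraries was most like that of Cyp2c55 were Ciart, Ces2a and Cyp3a11. Likeness was the root mean square difference in log2 CPM after each gene's own mean was taken away, and it was 0.66, 0.69 and 0.73 where Cyp2c55 itself varied by 1.68. The libraries share their depth and scaling, and no p is given. Ciart encodes a circadian repressor, Ces2a a carboxylesterase, and Cyp3a11 the main drug-metabolising Cyp3a enzyme of mouse liver. Ces2a was 318 ± 25.4 CPM in females on the normal diet and 102 ± 3.07 CPM on the high fat diet, and 435 ± 37.5 and 90.4 ± 20.7 CPM in males. For Cyp2c29 the nearest genes were Cyp3a59 at 0.39, Cyp2a5 at 0.42 and Tm7sf2 at 0.43, where Cyp2c29 varied by 0.96. For Cyp2c40 they were Cux2 at 1.58, Xist at 1.60 and Cyp3a41b at 1.73, where Cyp2c40 varied by 3.97. Cux2 is a transcription factor of female liver and Xist the RNA of the inactive X chromosome, and both are near 0 in males. In males Cux2 was 0.247 ± 0.188 CPM on the normal and 0.170 ± 0.0781 CPM on the high fat diet. Cyp3a41b was 0.791 ± 0.952 and 0.0859 ± 0.172 CPM in males and 118 ± 50.3 and 256 ± 196 CPM in females.

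**Figure D5:**
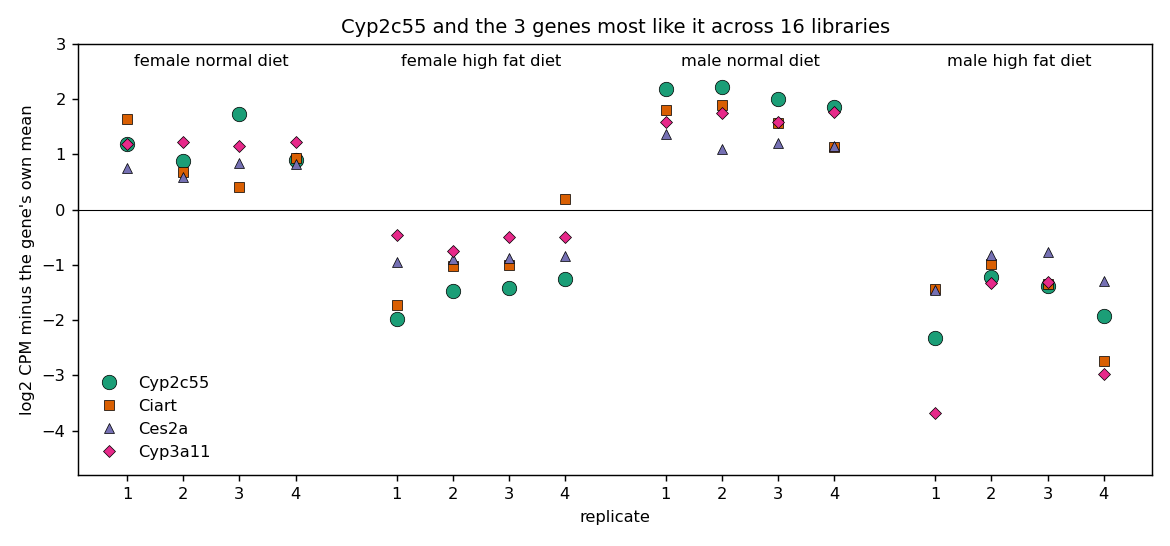
log2 CPM of Cyp2c55, Ciart, Ces2a and Cyp3a11 in each of the 16 libraries after each gene's mean over all libraries was subtracted (1 point per gene and library; log2 scale). All 4 genes lie above their mean in the 8 normal diet libraries, and in the high fat diet libraries all but Ciart in 1 female lie below it.

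Of the 5 other Cyp2c genes, 3 had enough counts to be tested. Cyp2c23, an arachidonic acid epoxygenase that lies some distance from the cluster, fell with the diet in both sexes. Its level was 268 ± 36.9 TPM in females on the normal diet and 170 ± 19.4 TPM on the high fat diet, and 249 ± 14.4 and 136 ± 20.2 TPM in males. The log2 fold change in CPM was -0.89 ± 0.12 in females (adjusted p = 0.000174) and -0.95 ± 0.12 in males (adjusted p = 9.78e-05). It did not differ between the sexes by more than 0.15 ± 0.12 on the log2 scale on either diet (adjusted p = 0.385 on the high fat and 0.637 on the normal diet). Cyp2c67 and Cyp2c70 were called in none of the comparisons. On the normal diet Cyp2c67 was lower in females, at 176 to 275 CPM, than in males, at 278 to 432 CPM. This difference of -0.46 ± 0.18 (adjusted p = 0.0949) had the opposite direction to that of Cyp2c40, Cyp2c68 and Cyp2c69, with which it shares reads. On the high fat diet it was 0.11 ± 0.18 (adjusted p = 0.694). The diet change of Cyp2c67 was 0.21 ± 0.18 in females and -0.37 ± 0.18 in males. Cyp2c70, which makes the muricholic acids of mouse bile, was 441 ± 20.2 TPM in females on the normal diet and 413 ± 122 TPM in males on the high fat diet. Its diet change was -0.02 ± 0.18 in females (adjusted p = 0.965) and -0.11 ± 0.18 in males (adjusted p = 0.744). Cyp2c65 was below 0.40 CPM in every library and Cyp2c66 had no counts in any, which allows up to 0.0760 to 0.133 CPM for 3 counts per library and covers counting error only, and neither was tested.

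Genes that supply the P450 enzymes and other genes of the pathway were read beside the members, and their counts stand against 11.5% of all genes called with diet in females and 11.4% in males. Of 8 genes of electron supply and heme metabolism, 4 fell in females and 1 in males, beside 5.76% and 5.36% of all genes called lower. Por, the reductase that passes electrons to microsomal P450 enzymes, fell from 762 ± 65.1 to 424 ± 74.8 CPM in females, a log2 fold change of -0.85 ± 0.13 (adjusted p = 0.000619). In males Por fell from 624 ± 33.5 to 387 ± 46.6 CPM, a log2 fold change of -0.69 ± 0.13 (adjusted p = 0.00282). Alas1, the first enzyme of heme synthesis, fell by 0.81 ± 0.23 in females (adjusted p = 0.0318), and Fech, the last, fell by 0.30 ± 0.09 (adjusted p = 0.0452).

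Among 15 nuclear receptors 1 rose and 4 fell in each sex. In females Nr1i2, which encodes PXR, fell from 99.5 ± 6.94 to 57.5 ± 6.18 CPM, a log2 fold change of -0.79 ± 0.10 (adjusted p = 0.000109). Hnf4a, a main regulator of hepatocyte genes, fell by 0.60 ± 0.12 (adjusted p = 0.00331). Both also fell in males, with log2 fold changes of -0.41 ± 0.10 for Nr1i2 (adjusted p = 0.0143) and -0.47 ± 0.11 for Hnf4a (adjusted p = 0.0139, and 0.083 without libraries 2 and 3), named in males after their values were seen. Nr1i3, which encodes CAR, is named for its role after its values were seen and passed the test in neither sex, with -0.18 ± 0.22 in females (adjusted p = 0.655) and 0.17 ± 0.22 in males (adjusted p = 0.671). Nr1d1, a clock repressor, rose in females by 1.79 ± 0.21 (adjusted p = 7.6e-05) and fell by 1.91 ± 0.22 in males (adjusted p = 5.68e-05). In males Nr1d2 also fell (-0.62 ± 0.12, adjusted p = 0.00216). The hour at which the livers were taken is not given in the sources used here.

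Of 21 targets of CAR and PXR outside the family, 6 fell and none rose in females, and 6 fell and 1 rose in males. Their median log2 fold change was -0.51 in females and -0.31 in males. Ces2a fell by 1.65 ± 0.14 in females (adjusted p = 3.57e-06) and fell by 2.26 ± 0.14 in males (adjusted p = 1.71e-08). Gstm3, a glutathione S-transferase, fell by 1.32 ± 0.20 in females (adjusted p = 0.000478) and fell by 2.14 ± 0.20 in males (adjusted p = 9.57e-06). Cyp2b10, the classic CAR target, fell in females from 42.1 ± 8.28 to 2.81 ± 0.38 CPM (-3.91 ± 0.70, adjusted p = 0.00407). Cyp3a11 fell in males from 10340 ± 671 to 816 ± 562 CPM (-3.66 ± 0.41, adjusted p = 8.04e-05), with 251, 1294, 1304 and 413 CPM in the 4 males on the high fat diet. Libraries 2 and 3 were thus the higher ones for this gene too.

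Of 20 tested enzymes that make or clear fatty acid epoxides and eicosanoids, 1 rose and 1 fell in females, a share near that of all genes, and 5 fell in males. Cyp4f13, a fatty acid hydroxylase, fell by 0.41 ± 0.09 in females (adjusted p = 0.00603) and fell by 0.42 ± 0.09 in males (adjusted p = 0.00452). Pla2g4a, a phospholipase that releases arachidonic acid, rose in females from 2.47 ± 0.54 to 4.58 ± 1.09 CPM (0.90 ± 0.24, adjusted p = 0.0238). Ephx1, the microsomal epoxide hydrolase, fell in males from 596 ± 41.0 to 295 ± 109 CPM (-1.02 ± 0.20, adjusted p = 0.00348), and the change was -1.55 ± 0.17 without libraries 2 and 3. Cyp4a12b fell by 1.73 ± 0.48 in males (adjusted p = 0.0355), a value that its near-identical copy Cyp4a12a makes uncertain and that was -0.98 ± 0.18 without libraries 2 and 3.

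Of 17 regulators that respond to growth hormone or sex hormones, 1 rose and 1 fell in females, again a share near that of all genes, and 2 rose and 1 fell in males. Stat5a and Stat5b, which carry the growth hormone signal, rose in males by 1.15 ± 0.19 (adjusted p = 0.000834) and 0.71 ± 0.13 (adjusted p = 0.00243). Foxa3, a liver transcription factor, fell by 1.25 ± 0.22 in males (adjusted p = 0.00214) and fell by 0.84 ± 0.22 in females (adjusted p = 0.0247), while Foxa2 rose in females by 0.78 ± 0.20 (adjusted p = 0.0205). On the normal diet all 16 genes of a list of female-biased liver genes were higher in females and all 15 of a male-biased list higher in males. Over all genes 7.03% were called higher in females on that diet and 8.68% higher in males. Of the female-biased list none passed the test for diet in females with edgeR (2 at an unadjusted p under 0.05) and 1, Cyp2b9, rose in males (6.15 ± 1.14, adjusted p = 0.00476). The males on the high fat diet were spread from 3.31 to 96.2 CPM of Cyp2b9, and without libraries 2 and 3 its change was 2.76 ± 0.64 (adjusted p = 0.0232). Of the male-biased list 4 fell in females and 2 in males.

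Some Cyp2c genes are known to be zoned across the liver lobule, so zonation markers stand beside the members. The summed level of 12 periportal markers was 12100 to 14500 CPM in females on the normal diet and 7685 to 10030 CPM on the high fat diet. In males it was 11630 to 15980 CPM and 8180 to 10430 CPM, and the diets did not overlap in either sex. Of these markers 4 fell in females and 2 in males, beside 5.76% and 5.36% of all genes called lower. For 14 pericentral markers the sum was 14610 to 16020 and 9341 to 17060 CPM in females and 9242 to 14640 and 14600 to 17650 CPM in males. Of these markers 2 rose in females and 5 in males. Over all genes 5.74% were called higher in females and 6.03% in males, and the counts of risen markers below stand beside the same shares. Markers of Kupffer cells and macrophages summed to 271 to 392 CPM in females on the normal diet and 449 to 657 CPM on the high fat diet, and to 252 to 394 and 227 to 451 CPM in males, with 4 of 10 risen in females and 3 in males. Of the other cell type lists, edgeR called 3 of 9 stellate cell markers higher in females and none in males (5 at an unadjusted p under 0.05), and 1 of 11 hepatocyte markers lower in males. In males Krt19, of the 6 tested cholangiocyte markers, fell (-1.52 ± 0.35, adjusted p = 0.0093, and 0.0573 without libraries 2 and 3). The sum of that list did not fall, with 47.6 to 61.7 CPM in males on the normal and 49.7 to 90.7 CPM on the high fat diet. Without libraries 2 and 3 Spp1, of the same list, was higher (0.85 ± 0.19, adjusted p = 0.0108). Cela2a, a pancreatic acinar marker, rose in males from 0.187 ± 0.078 to 1.58 ± 1.54 CPM (adjusted p = 0.0152), and 2 others of that list, Pnlip and Ctrb1, reached 8.18 and 4.04 CPM in males on the high fat diet. Cfd, the 1 called of 3 tested adipocyte markers, rose in males from 0.354 ± 0.204 to 5.99 ± 4.74 CPM (adjusted p = 0.0236). Without libraries 2 and 3 neither rise passed the test. Cela2a then changed by 1.58 ± 0.80 on the log2 scale (adjusted p = 0.264) and Cfd by 2.52 ± 1.13 (adjusted p = 0.206). These genes were picked for naming after their values were seen. The part of these shifts in the changes of the Cyp2c members was not tested.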

How the data were processed

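Liver RNA of 16 mice was measured by poly(A) RNA sequencing. Per the submitters' processing notes, reads were processed with STAR and RSEM on GRCm39; versions and strand setting are not given in the sources used here. The authors deposited RSEM expected counts and TPM per gene, per the file headers. Of the members' expected counts, 109 of 160 entries were not whole, beside 4.89% of all entries. Expected counts were rounded, filtered with filterByExpr, TMM-scaled and fitted with edgeR 4.0.16 (R 4.3.3) as 1 mean per group over all 16 libraries. The robust quasi-likelihood test was two-sided, and p-values were adjusted by Benjamini-Hochberg over 14781 genes and called under 0.05. Each SE was obtained from the log2 fold change and the F statistic (absolute change over root F). Libraries held 22228115 to 41420589 counts, and floors (3 counts) cover counting error only. The test was checked on simulated data. Alternatives used DESeq2 1.42.0, limma 3.58.1 on log2(TPM + 1) and log2(TPM + 0.1), other filters, summed copies and libraries left out. Promoter motifs were searched on both strands and chosen after the sequences were seen. Sequences were aligned with MAFFT 7.526 and Biopython 1.88.

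The members and the gene lists were chosen with earlier results of these data known. Of the 238 listed genes, 1 had no matching symbol and was left out. Named genes are all members and other Cyp2c genes, up to 3 called genes of each pathway list with the smallest adjusted p, and the 3 genes most like Cyp2c55, Cyp2c40 and Cyp2c29 (mean log2 CPM of at least 1, prior count 2). Removal of 2 libraries of the males on the high fat diet was chosen after seeing the data. A gene that the naming rule would give is not reported here.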

Additional observations from a re-analysis of the deposited data

Results flagged for a closer look

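The level of Cyp2c39 in library 3 of the females on the normal diet, 17.71 CPM, lay apart from the other 3 libraries of that group, which ran from 22.3 to 22.8 CPM. The gap made up 0.910 of the group's range, above Dixon's 95% critical value for 4 samples. In all, 44 groups of libraries were screened in this way, of which chance alone singles out about 1 in 20, and 1 was found.

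The change of Cyp2c40 with the high fat diet differed between the sexes, with a female change minus male change of 3.22 on the log2 scale. This difference was known when the family was chosen.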

How the results depend on the processing

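The number of Cyp2c members called with diet in females was 2, beside 1700 of 14781 genes. It became 4 with only the groups compared in the fit, beside 1439 of 14009 genes, and 1 with near-identical copies summed, beside 1676 of 14781. For the difference of the diet changes between the sexes it was 1, beside 100 of 14781 genes. It became 2 with DESeq2 (337 of 14781 genes) and 2 without male high fat diet libraries 2 and 3 (131 of 15524 genes). It was 4 without libraries 1 and 4, where the calls over all genes rose to 372 of 15574. With copies summed in edgeR's fit it was 0 (97 of 14781 genes), with 1 of the 4 summed genes at an unadjusted p under 0.05. The members' summed TPM changed in males by a log2 ratio of -1.40 in place of -0.63 without male high fat diet libraries 2 and 3, and the sexes on the high fat diet then differed by 2.51 in place of 1.74. Without libraries 1 and 4 instead, these values were -0.13 and 1.24. Over all 15 Cyp2c genes the sexes differed by 1.21 on the normal diet. Leaving out each library in turn gave 2 to 3 members called for diet in females, 3 to 5 in males and 1 to 1 for the difference. It gave 6 to 8 for sex on the normal diet and 5 to 7 on the high fat diet. In the same order, these fits called 947 to 1647, 1113 to 1912, 51 to 176, 1325 to 2488 and 1974 to 3019 of 15016 to 15111 genes. The log2 ratios of the summed TPM were then -0.51 to -0.28 for diet in females and -0.85 to -0.41 in males. They were 1.39 to 1.58 for sex on the normal diet and 1.53 to 1.97 on the high fat diet.

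With copies summed, Cyp2c38 changed by -0.57 with diet in females. In males Cyp2c38 and Cyp2c39, at 1.60 and 1.53, then took the value of a sum made up mostly of Cyp2c29, -1.55, and Cyp2c38 was at -0.33 without male libraries 2 and 3. The female change minus the male change turned from -1.33 for Cyp2c38 and -1.78 for Cyp2c39 to 0.98 with copies summed, and to 0.60 for Cyp2c38 and from -0.35 to 0.56 for Cyp2c37 without male libraries 2 and 3. With copies summed, Cyp2c50 and Cyp2c54 differed by 0.45 between the sexes on the high fat diet. Without male libraries 2 and 3 the last values were 0.31 for Cyp2c50 and 0.12 for Cyp2c54. Cyp2c55 differed by -0.032 between the sexes on the high fat diet without male library 1 (-0.032 to 0.32 when each library was left out in turn) and by -0.24 without libraries 1 and 4. With the replicate number as a block, 2 members were called for diet in females, 4 in males and 7 for sex on the normal diet. Over all 14781 genes the block fit called 1864, 1980 and 2685. Cyp2c54 lost its call for sex on the normal diet (adjusted p = 0.0768), and the block changed no other call of a member. Same-numbered libraries correlated by -0.159 to 0.18 across genes, so the numbers were not taken as pairs. On the TPM scale the median of all genes moved by 0.15 (log2) with diet in females, and 2644 genes were called higher and 282 lower, beside 848 and 852 on the scale used here. The fit with only the groups compared does not apply to the difference of the diet changes, which needs all groups. Depth limits the low members: in males on the high fat diet Cyp2c55 rests on 13 to 33 counts per library, and library 1 has 6.30 counts of Cyp2c69.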
